A study of Mus musculus with 6 samples.

Results

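Metallothioneins are small cysteine-rich proteins that bind zinc and copper. The set described here is made up of Mt1, Mt2 and Mt3, of Mtf1, the zinc-finger transcription factor that senses free zinc, and of Cp, which encodes the copper ferroxidase ceruloplasmin. Members were taken by name from the deposited count table, and 4 of the 5 were found among its 27372 genes: Mt1, Mt3, Mtf1 and Cp. Mt2, and the related Mt4, were not analysed here. All 4 passed the filter on low counts.

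The libraries were bulk RNA-seq of mouse neural stem cells cultured from postnatal day 7 animals, with RNA taken on culture day 7. A control group of genotype WT and a group labelled Sirt6 knockout (cKO in the series' design text) had 3 libraries each, numbered replicate 1 to 3. The labels name neither a Cre driver nor a strain, nor how many animals gave a library. Both groups grew in the same DMEM/F12 medium with EGF and bFGF at 20 ng/ml each, B27 at 2% and BSA at 0.2%. No label ties the libraries to separate animals or cultures, and the p-values measure only how these samples spread. That spread may be technical, at least in the labelled knockout group. The controls differed in Y-linked transcripts, as given below, so they were not all repeats of the same sample.

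As background, zinc that enters a cell through ZIP transporters (Slc39 genes) and leaves the cytosol through ZnT transporters (Slc30 genes) is buffered by metallothioneins. When free zinc rises, MTF1 binds metal response elements in promoters such as those of Mt1 and Slc30a1 and raises their transcription. Mt1 also responds to glucocorticoids, oxidants and STAT3 signalling. In brain Mt1 is mainly a gene of astrocytes, Mt3 is the brain-enriched member that responds little to metals, and a membrane-anchored form of ceruloplasmin on astrocytes oxidises iron as it leaves the cell.

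Library totals ran from 17198852 to 18297275 counts. Sirt6 itself averaged 17.5 ± 3.80 CPM in the control group against 26.8 ± 2.29 CPM in the labelled knockout group (SD, n = 3 each), where CPM is a count scaled to a common library size. Its log2 fold change, labelled knockout over control, was 0.61 ± 0.19 (SE; edgeR's quasi-likelihood test, adjusted p = 0.998 over all genes). Counts of the targeted gene were thus not lower in the labelled knockout group, though gene counts do not show which part of the gene was read. Whether the labels hold was not tested. Each direction here is therefore one between libraries labelled knockout and control, not a direction of Sirt6 loss. Of the neural stem cell markers listed, 10 of 10 were tested, with Vim at 2160 and Nes at 701 CPM on average, so the labelled cell type's markers were present. Y-linked transcripts (Ddx3y, Kdm5d, Eif2s3y and Uty summed) stood at 67.5, 234 and 0 CPM in control replicates 1, 2 and 3 and at 0.755 CPM or less in the labelled knockout group, so the sex-linked content of the controls differed.

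The promoters of Mt1, Mt3 and the zinc exporter gene Slc30a1 are printed because the first and the last are textbook targets of MTF1 and the second is the less metal-responsive neighbour of Mt1. Each runs from 250 bases before to 30 bases after the RefSeq start site (build GRCm38.p6, gene strand, 5′ to 3′). Capitals mark matches to the metal response element core, searched on both strands as TGCACNC and TGCGCNC. The windows are chr8:94178839-94179118 for Mt1, chr8:94152357-94152636 for Mt3 and chr1:191906531-191906810 for Slc30a1, all on the plus strand.
Mt1: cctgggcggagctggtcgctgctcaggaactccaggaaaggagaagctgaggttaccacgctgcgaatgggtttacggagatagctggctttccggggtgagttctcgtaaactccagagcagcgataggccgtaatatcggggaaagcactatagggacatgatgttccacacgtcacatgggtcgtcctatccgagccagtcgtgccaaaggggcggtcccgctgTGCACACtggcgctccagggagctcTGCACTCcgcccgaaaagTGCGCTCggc
Mt3: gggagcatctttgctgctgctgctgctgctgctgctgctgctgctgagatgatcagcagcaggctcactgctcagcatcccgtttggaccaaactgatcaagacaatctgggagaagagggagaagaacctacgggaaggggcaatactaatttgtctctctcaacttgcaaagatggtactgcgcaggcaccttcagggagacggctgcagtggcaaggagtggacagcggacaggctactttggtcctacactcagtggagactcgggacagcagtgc
Slc30a1: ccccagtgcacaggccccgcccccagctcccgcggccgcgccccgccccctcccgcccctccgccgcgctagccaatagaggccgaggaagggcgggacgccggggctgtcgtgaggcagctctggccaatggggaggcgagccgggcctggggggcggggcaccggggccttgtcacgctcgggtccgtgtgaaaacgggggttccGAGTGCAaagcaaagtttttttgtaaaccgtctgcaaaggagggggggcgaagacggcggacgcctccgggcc

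The Mt1 window held 3 matches, all on the gene strand, starting 23 bases before and at bases 3 and 21 from the start site, counted as 1. Of 32807 RefSeq windows of this length, 24.1% held at least 1 match and 1.73% held 3 or more. The Slc30a1 window held 1 match, on the other strand, from base -43 to base -37. The windows of Mt3, Mtf1 and Cp (2 windows for Cp) held 0. A match is a description of letters, and a window without one says only that these letters are not in it. Positions are given from the annotated start, and gene counts do not show whether these cells use that start. Matches outside the window were not searched for.

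**Figure D1:**
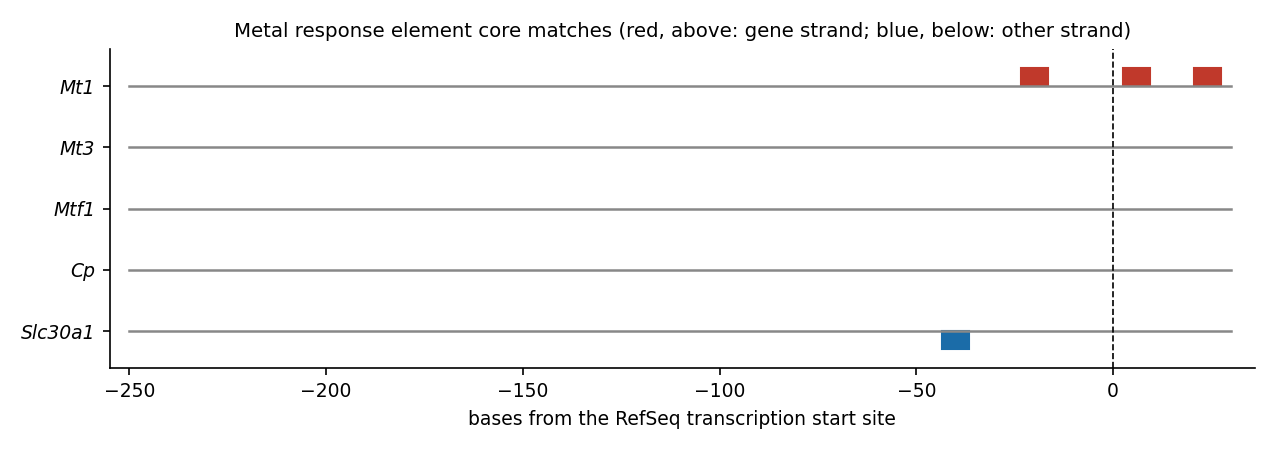
Positions of matches to the metal response element core in the window from 250 bases before to 30 bases after the RefSeq start site of 5 genes (first listed start for Cp). Boxes above a line lie on the gene strand and boxes below it on the other strand. Mt1 has 3 matches close to this annotated start, Slc30a1 has 1, and Mt3, Mtf1 and Cp have 0.

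Mt1 differed more among libraries of a group than between the groups. Mt1 (ENSMUSG00000031765, chromosome 8, 94179082 to 94180327 on the plus strand, mm10) drew 4270, 2974 and 7222 counts from the control group (replicate 1 to 3, the order used throughout) against 3685, 5971 and 7223 from the labelled knockout group. In CPM the control group was at 246, 160.1 and 413 and the labelled knockout group at 199, 357 and 414. Both replicates numbered 3 were high and nearly equal, control replicate 2 was lowest, and the groups overlapped. The means were 273 ± 129 CPM and 323 ± 111 CPM (SD, n = 3 each). The log2 fold change was 0.24 ± 0.39 (SE; edgeR's quasi-likelihood test, adjusted p = 0.998), with a 95% interval from 0.624-fold to 2.25-fold, which holds both a rise and a fall. Within same-numbered pairs the log2 difference was -0.31, 1.16 and 0.0019, that is 1 pair lower, 1 higher and 1 level.

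Mt3, the brain-enriched metallothionein once named growth inhibitory factor, lies 24935 bases upstream of Mt1 on the same strand (ENSMUSG00000031760, chromosome 8, 94152607 to 94154146). It had 175, 75.2 and 334 CPM in the control group against 140, 124 and 244 CPM in the labelled knockout group, from 3043, 1396, 5829, 2589, 2069 and 4251 counts. The order of the replicate numbers was the same in both groups: number 2 lowest, number 1 between, number 3 highest. The lowest and the highest of the 6 values were both controls, so the groups overlapped fully. The log2 fold change was -0.20 ± 0.51 (SE; edgeR adjusted p = 0.998), with a 95% interval from 0.375-fold to 2.01-fold. Blocking on the replicate number, edgeR gave -0.03 ± 0.24 (SE) and an interval from 0.641-fold to 1.5-fold. The log2 differences in the numbered pairs were -0.33, 0.72 and -0.45.

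Mtf1 was the steadiest of the 4. Its level (ENSMUSG00000028890, chromosome 4, 124802104 to 124849800 on the plus strand) was 41.5, 36.2 and 42.4 CPM in the control group against 44.7, 32.1 and 46.3 CPM in the labelled knockout group. Both replicates numbered 2 were the low ones, and the groups overlapped. The log2 fold change was 0.04 ± 0.17 (SE; edgeR adjusted p = 0.998), with a 95% interval from 0.774-fold to 1.36-fold, the narrowest of the set. Reads over 8.09% of its exon bases could also come from 1110065P20Rik, which lies on the opposite strand (18.9 CPM on average). No source used here gives the strand setting of the counting.

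Cp stood apart in 1 library. Its level (ENSMUSG00000003617, chromosome 3, 19957054 to 20009145 on the plus strand) was 51.4, 36.1 and 37.4 CPM in the control group against 29.7, 93.3 and 22.9 CPM in the labelled knockout group. Labelled knockout replicate 2 was above all controls, and the other two of its group were below all controls. The log2 fold change was 0.22 ± 0.51 (SE; edgeR adjusted p = 0.998), with a 95% interval from 0.51-fold to 2.67-fold. Without labelled knockout replicate 2 it was -0.66 ± 0.23 (SE), with an unadjusted p of 0.0273 and an adjusted p of 0.726 by edgeR. In this fit the sign of the Cp estimate thus rests on that library. The sign also depends on the fit. With that library kept, limma-voom gave -0.0533, and blocking on the replicate number gave -0.0533 (edgeR) and -0.0704 (DESeq2). The numbered pairs differed by -0.79, 1.37 and -0.71. Cp shares 1.13% of its exon bases with Hps3 on the opposite strand (21.9 CPM on average).

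**Figure D2:**
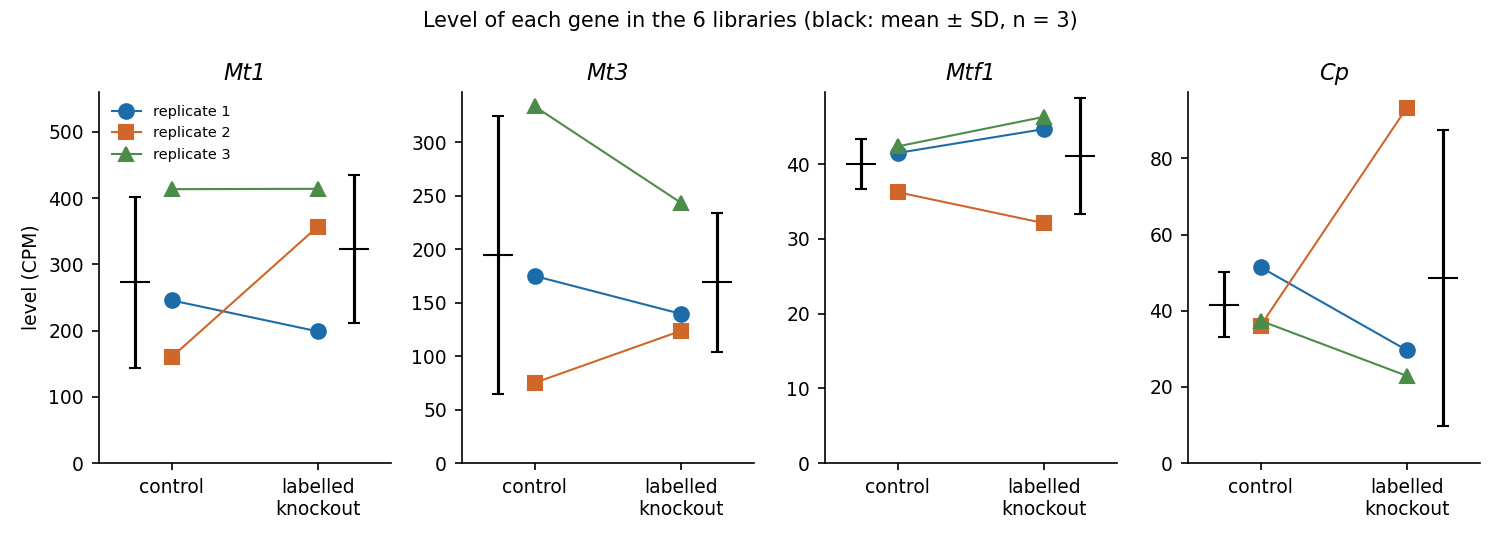
Level in CPM of Mt1, Mt3, Mtf1 and Cp in each library, with lines joining the same replicate number in the control and labelled knockout groups and black marks for the mean ± SD (n = 3). Mt1 runs from 160.1 to 414 and Mt3 from 75.2 to 334 CPM with overlapping groups, Mtf1 stays between 32.1 and 46.3 CPM, and Cp reaches 93.3 CPM only in labelled knockout replicate 2.

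By edgeR, 0 of the 4 genes passed the test at an adjusted p under 0.05, against a background of 0% of the 15087 genes tested. At an unadjusted p under 0.05 the counts were 0 of 4 and 524 of 15087 (3.47%). The groups did not overlap in 0 of the 4, against 8.6% of all genes tested. Limma-voom called 0 genes (3.7% at an unadjusted p under 0.05), and DESeq2 called 5 genes (0.0183%), Rps4l, Mbp, Tdg, Parvb and Tle2, so 0 of the 4 here. Same-numbered libraries resembled each other, and with the replicate number as a block DESeq2 called 465 of 13044 genes (3.56%; 1.17% higher and 2.39% lower) but again 0 of the 4. With that block edgeR called 0%. In the authors' deposited table the adjusted p of each of the 4 rounds to 1.0.

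The direction of every member turned under some setting. In a fit that also held the Y-linked level, Mt1 was at -0.21 and Mt3 at -0.85 ± 0.33 (log2 fold change, SE), the latter with an unadjusted p of 0.0417, which 3.08% of genes passed at 0.05 in that fit, and an adjusted p of 1.0 by edgeR. The Y-linked level was 0.755 CPM or less in the labelled knockout group, so its slope in that fit rests on the controls. The labelled knockout group is thus set against controls projected to a level near 0, where only control replicate 3 stood. That fit cannot separate sex-linked content from the group. Without control replicate 3, the library high in both metallothioneins, Mt1 was at 0.68 and Mt3 at 0.44. Without control replicate 2, the library low in both, they were at -0.03 and -0.59. Neither gene therefore had a direction that held for all settings.

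**Figure D3:**
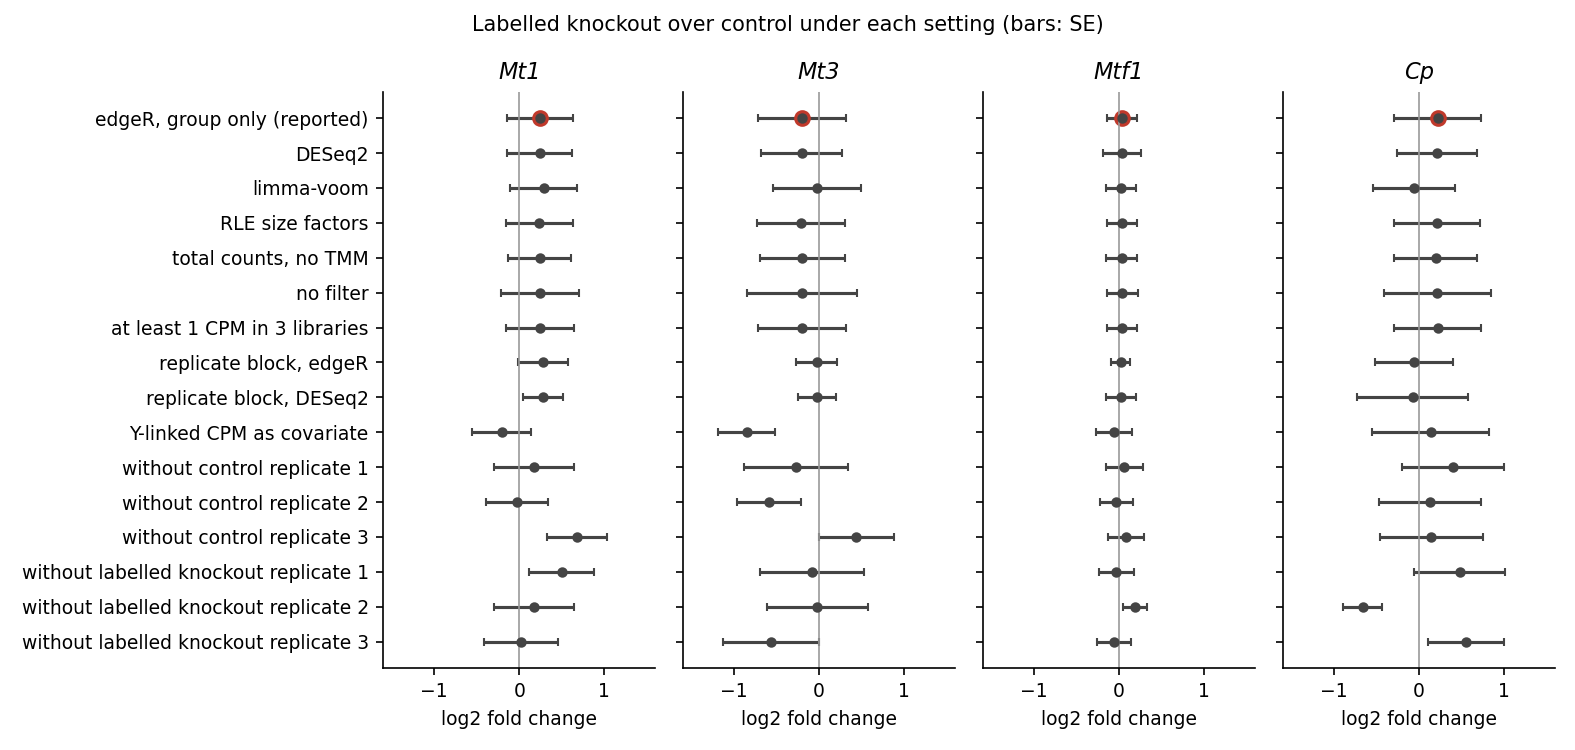
Log2 fold change (labelled knockout over control) of Mt1, Mt3, Mtf1 and Cp under each fit, with bars for the SE; the red point is the reported edgeR fit. Estimates of each gene fall on both sides of 0, Mt3 from -0.85 to 0.44 and Cp from -0.66 to 0.56, while Mtf1 stays between -0.06 and 0.19.

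The genes differed in how far they ranged over the 6 libraries, whatever the group. The highest library was 4.44 times the lowest for Mt3, 4.07 times for Cp, 2.59 times for Mt1 and 1.44 times for Mtf1, against a median of 1.68 times over all genes tested. With 0.1 CPM added to each value, 91.4% of tested genes ranged less than Mt3, 89.7% less than Cp, 76.6% less than Mt1 and 31.9% less than Mtf1. Per length of the longest coding transcript, as RPKM (CPM per kilobase), Mt3 averaged 339, Mt1 275, Cp 9.89 and Mtf1 5.31 RPKM. Over all merged exons instead, Mt1 averaged 239, Mt3 171, Cp 4.72 and Mtf1 4.55 RPKM, so the order of the metallothioneins depends on the transcript assumed. The merged exons of Mt1 form 1 block of 1246 bases, its whole span, and its longest coding transcript has 1085 bases. A shorter Mt1 transcript would give a higher RPKM and a higher ratio to Mt3. The RPKM of Mt1 per RPKM of Mt3, by the coding transcript, was 0.693, 1.05 and 0.612 in the control group against 0.703, 1.43 and 0.839 in the labelled knockout group. It was highest in both replicates numbered 2, where Mt3 was low.

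Profiles were compared as log2 CPM centred on each gene's mean, by the root mean square difference over the 6 libraries, among 9546 named protein-coding genes with at least 10 CPM. Nearest to Mt1 were Acad11, an acyl-CoA dehydrogenase gene, at 0.11, Mgst3, a microsomal glutathione S-transferase gene, at 0.116, and Ctso, a cathepsin gene, at 0.136, where the median candidate lay at 0.562. Nearest to Mt3 were Foxj1, the transcription factor of motile cilia and ependyma, at 0.114, S100a1, a calcium-binding protein gene, at 0.146, and Nacc2, a BTB-domain repressor gene, at 0.156. Foxj1 stood at 35.2, 14.7 and 61.1 CPM in the control group against 23.5, 26.6 and 44.5 CPM in the labelled knockout group. Mt1 and Mt3 lay 0.416 apart, farther than these neighbours, and Mt3 took place 1162 in the order of likeness to Mt1, while Mt1 took place 286 in that to Mt3, where the median candidate lay at 0.714. Nearest to Mtf1 were St3gal2 (0.0197), a sialyltransferase gene, Ubr4 (0.0387), a ubiquitin ligase gene, and Mars (0.0389), the methionyl-tRNA synthetase gene, in a flat profile where the median candidate lay at 0.261. Nearest to Cp were Epb41l4a at 0.139, Asph, an aspartyl hydroxylase gene, at 0.268, and Ddit4, an mTORC1 inhibitor gene induced by stress and low oxygen, at 0.289. All of these points share the same 6 libraries and their depth.

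**Figure D4:**
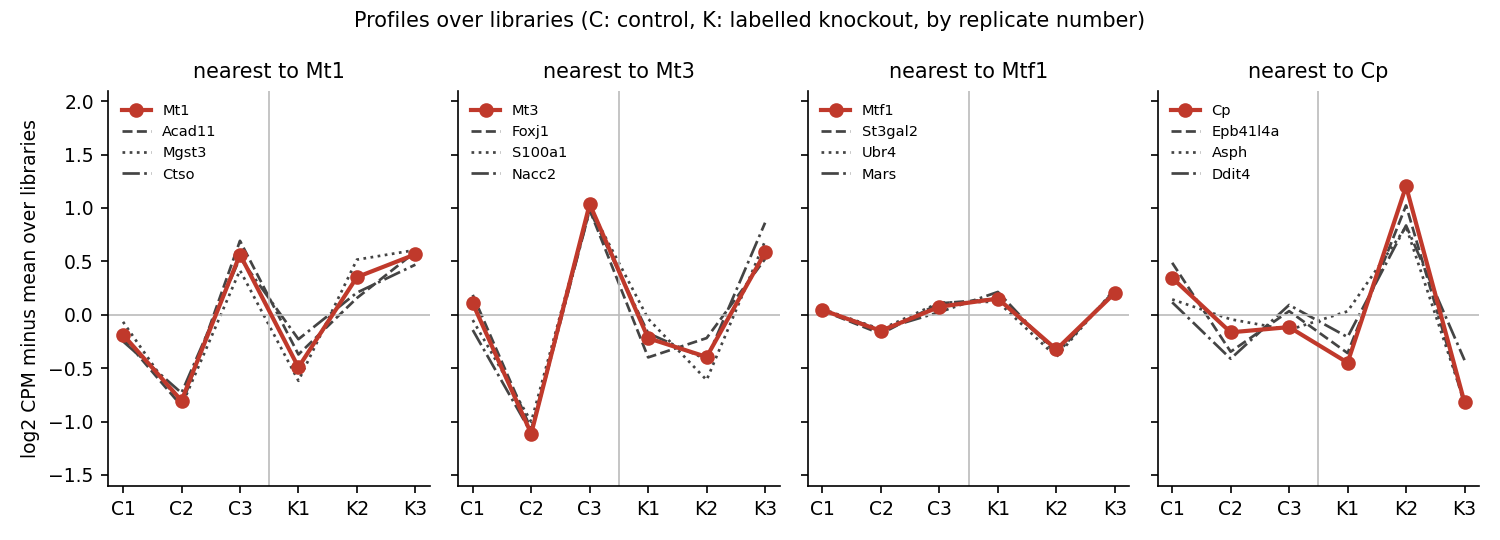
Log2 CPM of each gene minus its mean over the 6 libraries (C1 to C3 control, K1 to K3 labelled knockout), for Mt1, Mt3, Mtf1 and Cp in red and the 3 genes nearest to each in grey. Mt1 and Mt3 are both lowest in control replicate 2, Mtf1 is nearly flat, and Cp peaks in labelled knockout replicate 2.

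Zinc transporter genes did not pass the test. Of 10 zinc exporter genes listed, 7 were tested and 0 passed, with 5 estimates above and 2 below 0 and a median log2 fold change of 0.10, against 6.6e-05 over all genes tested. Slc30a1, the plasma membrane exporter whose promoter is printed above, was rare at 27, 18 and 13 counts in the control group against 41, 16 and 38 in the labelled knockout group. That is 1.55, 0.969 and 0.744 CPM against 2.21, 0.956 and 2.18 CPM, with labelled knockout replicate 2 at the controls' level. Its log2 fold change was 0.71 ± 0.47 (SE; edgeR adjusted p = 0.998). Slc30a4, a vesicular zinc transporter gene, was the 1 of the 7 whose groups did not overlap, at 6.90, 8.88 and 8.07 CPM in the control group against 6.15, 6.70 and 4.93 CPM in the labelled knockout group. That is -0.42 ± 0.24 (log2 fold change, SE; edgeR adjusted p = 0.998), and 3.73% of all genes tested were separated in that direction. Its mean of 6.94 CPM was below the cut of 10 CPM set for comparing profiles, so its profile was not compared with that of Mt1. The most abundant exporter genes were steady: Slc30a9, a mitochondrial transporter gene, had 135 ± 14.8 CPM in the control group against 145 ± 10.7 CPM in the labelled knockout group (SD, n = 3 each). Slc30a5 and Slc30a7, of the early secretory pathway, had log2 fold changes of -0.07 ± 0.11 and 0.07 ± 0.14 (SE).

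Of 14 zinc importer genes, 11 were tested and 0 passed, 5 above and 6 below 0, with a median log2 fold change of -0.01. Slc39a1, a plasma membrane importer gene, had 125 ± 29.4 CPM in the control group against 156 ± 13.1 CPM in the labelled knockout group (SD, n = 3 each; log2 fold change 0.32 ± 0.19, SE). Slc39a10 stood at -0.05 ± 0.18 and Slc39a6 at 0.03 ± 0.13. Slc39a14, an importer of zinc, iron and manganese, had 62.7, 52.8 and 74.7 CPM in the control group against 74.4, 65.4 and 99.4 CPM in the labelled knockout group. Slc39a12, known in astrocytes, ranged from 3.24 to 29.4 CPM, its highest in control replicate 3 and its lowest in labelled knockout replicate 1. Slc39a14 and Slc39a12 were chosen after their values were seen.

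Among copper genes the largest estimate was that of Atp7b, a copper pump that loads copper into ceruloplasmin in the liver. Atp7b stood at 16.2, 10.01 and 10.7 CPM in the control group against 23.6, 24.0 and 20.0 CPM in the labelled knockout group, with no overlap. Its log2 fold change was 0.88 ± 0.23 (SE; unadjusted p = 0.0058, edgeR adjusted p = 0.998), which did not pass over all genes. With the replicate number as a block, DESeq2 gave 0.90 ± 0.24 (SE) and an adjusted p of 0.0071, and edgeR with the same block an adjusted p of 0.126. Cp itself was not higher with it in labelled knockout replicates 1 and 3. Of 14 copper genes listed, 12 were tested, 8 above and 4 below 0, with a median of 0.13, and 0 passed in edgeR. In 3 of the 12, Atp7b, the copper chaperone gene Atox1 and the cytochrome oxidase chaperone gene Cox17, all libraries labelled knockout were above all controls, against 4.88% of all genes tested. Sod1, the copper and zinc superoxide dismutase gene, stood at 0.08 ± 0.15, Slc31a1, the main copper importer gene, at 0.05 ± 0.15, and Cox19 at -0.01 ± 0.13. Heph, which encodes the ferroxidase related to ceruloplasmin, had 0 to 3 counts per library and was not tested.

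Iron genes, which ceruloplasmin serves by oxidising iron at its exit, divided evenly: of 15 listed, 12 were tested, 6 above and 6 below 0, with a median of 0.02 that ran from -0.05 to 0.10 with a library left out, and 0 passed. Fth1, the ferritin heavy chain gene and the most abundant, had 820, 577 and 1702 CPM in the control group against 760, 912 and 1406 CPM in the labelled knockout group (log2 fold change -0.01 ± 0.43, SE). Like Mt3, Fth1 was highest in control replicate 3 and lowest in control replicate 2, which was also the lowest library of Mt1. Ncoa4, a ferritin autophagy receptor gene, was above all controls in the labelled knockout group and Tfrc, the transferrin receptor gene, below them, and such separation held for 4.88% and 3.73% of all genes tested. Ireb2 and Aco1, which encode the iron regulatory proteins, stood at 0.05 ± 0.12 and -0.14 ± 0.12. Slc40a1, the iron exporter gene that works beside ceruloplasmin, had at most 0.286 CPM in any library and was not tested.

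Pathways known to induce Mt1 were read from 4 lists, and edgeR called 0 genes in each. Of 10 genes listed as glucocorticoid-induced, among them the receptor gene Nr3c1 itself, 9 were above and 1 below 0, with a median of 0.10. Leaving out 1 library gave medians from 0.041 (control replicate 2) to 0.23 (control replicate 3), with 0.17 for control replicate 1 and 0.19 for labelled knockout replicate 3. The most abundant were Ddit4 at 0.23 ± 0.34, Nr3c1, the glucocorticoid receptor gene, at 0.10 ± 0.13, and Klf9 at 0.22 ± 0.24 (log2 fold change, SE). Zbtb16, a zinc-finger repressor gene, was the 1 below, with 9.46 ± 1.16 CPM in the control group against 6.07 ± 0.798 CPM in the labelled knockout group (SD, n = 3 each; unadjusted p = 0.0245, edgeR adjusted p = 0.998). Pdk4, a pyruvate dehydrogenase kinase gene, had the highest estimate, 1.15 ± 0.55 (SE; edgeR adjusted p = 0.998). It had 4.95, 1.24 and 6.70 CPM in the control group against 7.50, 10.2 and 10.9 CPM in the labelled knockout group. The groups did not overlap in Pdk4 (higher) and in Zbtb16 (lower), and such separation held for 4.88% and 3.73% of all genes tested. Of 12 STAT3 and acute phase genes, 9 were tested, 8 above and 1 below 0, with a median of 0.38. Leaving out control replicate 3 moved that median to 1.13, leaving out control replicate 2 to 0.18, and leaving out labelled knockout replicate 3 to 0.01, and the fit with the Y-linked level gave -0.05. Stat3 stood at 0.38 ± 0.22, Il6st at 0.17 ± 0.22 and Lifr at 0.05 ± 0.23. With the replicate block DESeq2 called C4b, a complement gene (adjusted p = 1.1e-04), and Osmr, the oncostatin M receptor gene (adjusted p = 0.0144), both higher in the labelled knockout group, that is 2 of the 9 tested, against 1.17% of all genes. C4b was at 12.8, 3.55 and 21.9 CPM in the control group against 19.3, 18.5 and 66.3 CPM in the labelled knockout group, and Osmr at 10.1, 1.62 and 11.05 against 30.8, 8.25 and 12.3 CPM. The groups overlapped in both genes. EdgeR with the same block called neither, with adjusted p = 0.193 for C4b and 0.321 for Osmr. In the fit without the block C4b was at 1.44 and at 0.56 without labelled knockout replicate 3, and Osmr was at 1.18 and at 0.44 without labelled knockout replicate 1.

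Of 12 genes listed as hypoxia-induced, 11 were tested, 10 above and 1 below 0, with a median of 0.98 and a wide spread within groups. The 1 below was Hif1a (-0.13 ± 0.16, SE), which encodes the regulating factor rather than a target. Vegfa, the angiogenic growth factor gene, had 134 ± 89.8 CPM in the control group against 283 ± 204 CPM in the labelled knockout group (SD, n = 3 each). Their summed level was 1784, 1278 and 1026 CPM in the control group against 2115, 2731 and 777 CPM in the labelled knockout group. The highest and the lowest of these sums, in labelled knockout replicates 2 and 3, were also the highest and the lowest library of Cp. Labelled knockout replicate 1 went the other way, with the next highest sum but Cp at 29.7 CPM, below all controls. The list's median was 0.30 without labelled knockout replicate 2, 1.58 without control replicate 1 and 1.45 without labelled knockout replicate 3. Pgk1 and Ldha, glycolytic enzymes, stood at 0.24 ± 0.39 and 0.47 ± 0.48. Of 10 genes of the NRF2 antioxidant response, all tested, 7 were above and 3 below 0, with a median of 0.20 that was 0.019 without control replicate 2, 0.054 without labelled knockout replicate 1 and 0.31 without control replicate 3. Txnrd1 stood at -0.07 ± 0.18, Nfe2l2, which encodes NRF2, at 0.24 ± 0.32, and Gclc, a glutathione synthesis enzyme that MTF1 also regulates, at 0.19 ± 0.17.

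**Figure D5:**
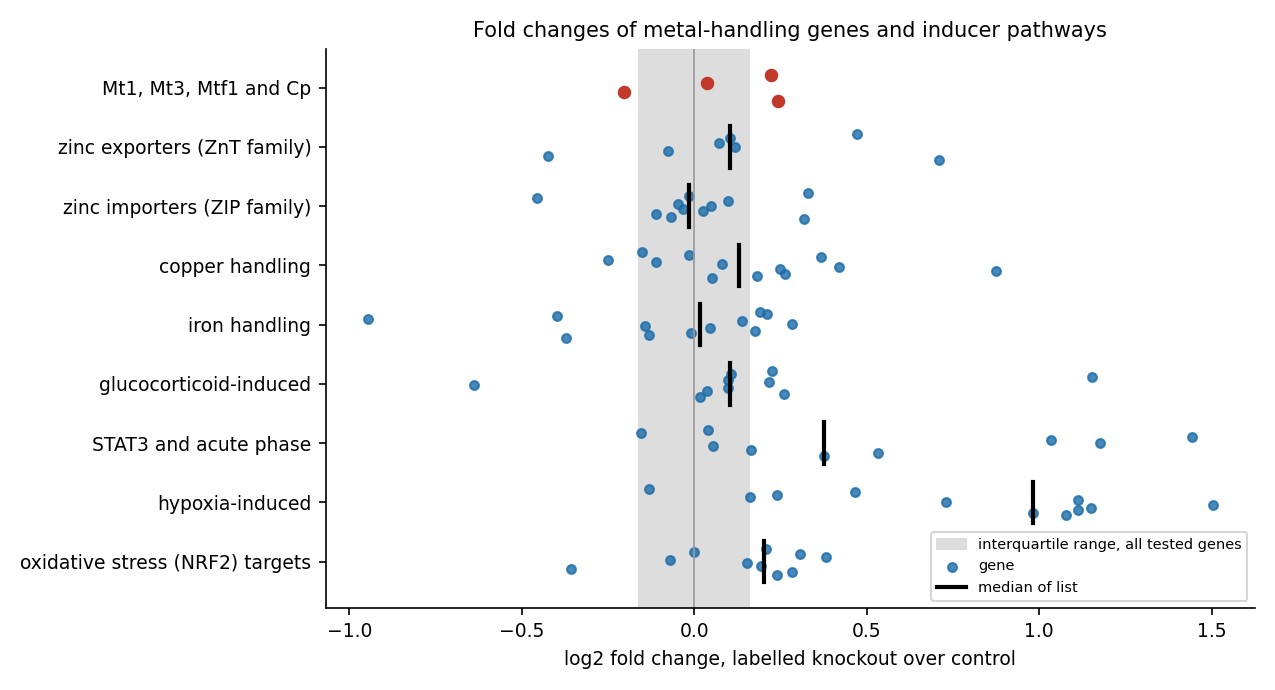
Log2 fold changes (labelled knockout over control, edgeR) of the tested genes of 8 lists in blue with the list median as a black bar, of Mt1, Mt3, Mtf1 and Cp in red, and the interquartile range of all tested genes in grey. Zinc and iron genes centre near 0, and the hypoxia-induced list has the highest median (0.98).

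Markers of other cell types were set beside the metallothioneins. In bulk samples, more cells of a type and more RNA per cell cannot be told apart. The 12 astrocyte markers summed to 7555, 3737 and 13825 CPM in the control group against 9397, 9249 and 21531 CPM in the labelled knockout group, and none of the 12 was at 0 in all libraries. As with Mt1, the sum was lowest in control replicate 2 and highest in the replicates numbered 3 of their groups. Most of the sum was Apoe, Slc1a2 and Slc1a3, so it does not stand for every marker. These genes and Aldoc, Gja1, Aqp4 and Gfap shared both traits. Sox9, Aldh1l1, S100b, Ntsr2 and Gjb6 did not. Gfap, the astrocyte filament gene, had 212, 51.4 and 261 CPM in the control group against 443, 493 and 1190 CPM in the labelled knockout group, with no overlap (edgeR adjusted p = 0.998; adjusted p = 0.011 by DESeq2 with the replicate block). Such separation upward held for 2 of the 11 tested markers, against 4.88% of all genes tested. Of the 11 astrocyte markers tested, DESeq2 with the block called 6 higher, against 1.17% of all genes in that fit, and edgeR with the same block called 0 (lowest adjusted p = 0.153, Gfap). The part of astrocyte content in the levels of Mt1 and Mt3 was not tested.

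Ependymal and choroid plexus markers (7 of 8 in the table) summed to 36.2, 15.2 and 62.1 CPM in the control group against 24.7, 27.9 and 46.1 CPM in the labelled knockout group, nearly all of it Foxj1. Ttr, the defining transcript of choroid plexus, had at most 0.288 CPM. Foxj1 is the gene picked above as nearest to Mt3, so the likeness of this sum to Mt3 is not a second observation. The part of ependymal cells in the level of Mt3 was not tested. Oligodendrocyte lineage markers summed to 3373, 4512 and 3558 CPM in the control group against 3191, 3314 and 3275 CPM in the labelled knockout group. Each labelled knockout sum lay below each control sum, but most of the sum was Olig1 and Olig2, which were lower, as was Cspg4. The sum does not stand for the list: of the 11 markers tested, 8 were above and 3 below 0, with a median log2 fold change of 1.06. DESeq2 with the block called 6 of the 11 tested higher and 2 lower (1.17% and 2.39% of all genes), and edgeR with the block called 0. Neuroblast and neuron markers summed to 995 to 1370 CPM, with 2 of 9 called higher by DESeq2 with the block (1.17% of all genes) and 0 by edgeR with it. Microglial markers summed to 0.688 CPM or less in every library. Endothelial and pericyte markers summed to 197 to 695 CPM, most of it Cspg4, which oligodendrocyte progenitors also express, and Cdh5 was at 0 in 5 of the 6 libraries. Fibroblast markers summed to 39.6 to 119 CPM, nearly all of it Pdgfra, another gene of oligodendrocyte progenitors, and Col1a2 had at most 0.0598 CPM. Of the neural stem cell markers, Nes was called lower with the block in DESeq2 (log2 fold change -0.45 ± 0.14, adjusted p = 0.0498), and edgeR with the block called 0 of the 10.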

How the data were processed

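RNA was extracted with TRIzol and 2 µg per sample went into NEBNext Ultra libraries, per the labels' protocols. The submitters' processing notes list HISAT2 2.1.0, Bowtie2 2.2.3 and build mm10 and give no role for any of them. No source used here says how reads were counted, on which strand or against which annotation. The table deposited by the authors holds raw counts per gene and library, per the file headers. Beside them the authors deposited a mean scaled signal, a fold change (ratio), a log2 ratio of control over knockout, and p-values, raw and adjusted. A single line (1) that names no gene stayed out. GENCODE M21 (GRCm38) holds 99.8% of the gene IDs, with identical start and end for 94.6% of these. Of 50-base stretches of the 4 genes' transcripts, 0% occur, read on the same strand, in transcripts of another gene; exon overlap on the opposite strand is given for Mtf1 and Cp.

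Counts of all genes were tested with edgeR 4.0.16 (R 4.3.3): TMM, filterByExpr (minimum count 10, minimum total 15), robust glmQLFit and glmQLFTest on group, Benjamini-Hochberg at 0.05. CPM uses TMM-scaled library sizes, on which 1 CPM is 16.7 to 18.6 counts, and log2 CPM a prior count of 2. Standard errors are the log2 fold change over the root of F. DESeq2 1.42.0 and limma-voom (limma 3.58.1) were alternatives. Every pair of libraries differed by more than sampling noise (chi-square per degree of freedom 19.4 or more over genes with at least 60 counts).

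Titles number the libraries 1 to 3 in both groups. After subtraction of group means, the correlation across genes was 0.435, 0.346 and 0.508 for the pairs numbered 1, 2 and 3. Their mean was 0.43, against a mean of 0.0951 for the next best way to pair control with labelled knockout libraries. The labels do not state a pairing, so the block is an alternative.

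The members and lists were chosen with earlier results of these data known. Named were the 4 genes, Sirt6, the 3 most abundant tested genes of a list, list genes with an unadjusted p under 0.05 or called in any fit, and the 3 nearest profiles; not all cell type markers so chosen are printed. Genes with groups that did not overlap, and others said to be so, were named after their values were seen.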

Additional observations from a re-analysis of the deposited data

How the results depend on the processing

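None of Mt1, Mt3, Mtf1, Cp and Sirt6 passed an adjusted p of 0.05 under any of the 15 alternatives (smallest 0.771, 0.868, 0.866, 0.726 and 0.10). Signs turned as follows, and the cause was not tested. With limma-voom Cp was at -0.0533, with the replicate block at -0.0533 (edgeR) and -0.0704 (DESeq2). With the Y-linked covariate Mt1 was at -0.21 and Mtf1 at -0.061. Leaving out 1 library gave -0.0276 to 0.68 for Mt1, -0.59 to 0.44 for Mt3, -0.0582 to 0.19 for Mtf1 and -0.66 to 0.56 for Cp. The count of genes called was 5 by DESeq2, 1 without a filter (Rps4l), 465 by DESeq2 with the replicate block and 0 to 2 with a library left out (Gm9855 without control replicate 1, Parvb and Ddx3y without control replicate 3). List medians moved by more than the spread between libraries for copper genes without a filter (0.0837) and, with the Y-linked covariate, for copper (0.0312), iron (-0.10) and NRF2 genes (-0.0436). With a library left out, zinc importers ran from -0.00757 to 0.11 and STAT3 genes from 0.0121 to 1.13. The other list medians moved by less in all alternatives, though the lowest were below 0 for zinc exporters (-0.0116), glucocorticoid (-0.0359) and STAT3 genes (-0.0514). The same alternatives for Atp7b, Slc30a1, Zbtb16, C4b and Osmr were chosen after seeing the data; Atp7b ran from 0.75 to 1.12, C4b from 0.56 to 2.09 and Osmr from 0.30 to 1.55, and the DESeq2 fit with the block called it, C4b and Osmr. The block changed no other call among the genes tested under these alternatives.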
